A study of Mus musculus with 8 samples.

Results

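Fatty acid oxidation was followed through 46 genes of the pathway, of the 24630 genes in the deposited table, in muscle stem cells of young and old mice. The genes were taken by symbol from a fixed list, and all 46 were found. They cover uptake and activation of fatty acids (7 genes), the carnitine shuttle (7), mitochondrial acyl-CoA dehydrogenases (7), the mitochondrial steps from hydration to thiolysis (5), mitochondrial auxiliary enzymes (3), the electron transfer flavoprotein and its oxidoreductase (3), PPAR regulators (2) and peroxisomal enzymes and transporters (12). The animals were male C57BL/6 mice with no labelled treatment or engineered allele, 4 of them young (4 months) and 4 old (22 months). From each animal, quiescent muscle stem cells, which lie beside the fibres and are also called satellite cells, were sorted from limb muscle as CD45-, CD31-, Sca1- and VCAM+ cells. One library was made per animal, from 10 ng of RNA with oligo(dT) priming, so each value below stands for 1 mouse.

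Fatty acids enter a cell through membrane proteins such as CD36 and are activated to acyl-CoA by the acyl-CoA synthetases of the ACSL family. Long chains reach the mitochondrial matrix as carnitine esters, where rounds of dehydrogenation, hydration, a further dehydrogenation and thiolysis release acetyl-CoA and pass electrons to the respiratory chain. Peroxisomes shorten very long and branched chains, which mitochondria handle poorly, and send the shortened products on. Quiescent muscle stem cells are known for relying on fatty acid oxidation more than their activated progeny do.

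The libraries differed in depth by age. The deposited values resolved into whole reads, which gave 1.91 to 6.56 M (mega) reads in genes for the young libraries and 20.1 to 24.9 M for the old. In RPKM (reads per kilobase of gene per M reads), 3 reads over 1 kb of exons were worth 0.403 to 0.959 in the young libraries and 0.157 to 0.181 in the old. All 12 muscle stem cell markers had reads in every library, Pax7 at 14.7 to 22.6 RPKM in the young and 8.22 to 13.4 RPKM in the old. Markers of other cells were also present. The 7 tenocyte markers summed to 211 to 328 RPKM in young libraries, and in old ones to 552 to 1672 RPKM, the 12 fibroblast markers to 1785 to 2331 and 1472 to 2573 RPKM, the 15 muscle fibre markers to 191 to 419 and 68.1 to 440 RPKM, and the 12 endothelial markers to 131 to 162 and 50.8 to 133 RPKM. By the limma test used below, 6 of 6 tested tenocyte markers rose, and of the 12 muscle stem cell markers 7 fell and 1 rose. Olfactory and vomeronasal receptor genes, 1411 genes that these cells should not use, averaged 0.497 ± 0.344 RPKM (SD, n = 4) in the young libraries and 0.0423 ± 0.00926 RPKM (n = 4) in the old. The part of these other markers, of depth and of this low signal in the results below was not tested, except where a value is given.

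The values are given on 2 scales, because they differ in direction. On the deposited scale the median log2 change (the log2 of old over young, from log2 of RPKM + 1) of all 5703 tested genes was 0.64. On library totals, where each library's RPKM were recomputed per M of its own reads in genes, it was -0.01. The deposited values imply library sizes of 1.14 to 1.64 times the reads in genes in the young libraries. In the old libraries the implied sizes were 0.678 to 0.849 times those reads. Library totals set this factor aside, and which scale is closer to RNA per cell was not tested. RPKM values below are on library totals unless the deposited scale is named, and "rose" and "fell" refer to limma tests on library totals with an adjusted p under 0.05, that is, to a share of the library's reads. In a bulk sample, fewer cells of a type and less RNA per cell cannot be told apart.

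Across the pathway, 1 of the 27 genes that averaged at least 5 RPKM rose, 14 fell and 12 did not pass the test. Among all tested genes 12.3% rose and 12.7% fell. The median log2 change of the 27 was -0.42 against -0.01 for all tested genes. On the deposited scale 8 of the 27 were higher and 0 lower by limma, against 68.1% and 1.12% of all tested genes, and the median was 0.15 against 0.64. At an unadjusted p under 0.05 the lower count on the deposited scale was also 0, against 69 of all 5703 tested genes. By compartment, all 7 tested peroxisomal genes fell, as did 4 of 5 genes of the later mitochondrial steps, none of the 3 tested shuttle genes passed the test, and the single gene that rose encodes an activating enzyme. The difference in counts between compartments was not tested. Of the 19 genes under 5 RPKM, 5 averaged less than 1 RPKM (Acsl6, Cpt1b, Acad10, Ppara and Ehhadh) and were not tested. At a minimum of 1 RPKM, where 7.27% of 11096 genes rose and 22.3% fell, 1 of 41 rose, 22 fell and 18 did not pass the test.

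**Figure D1:**
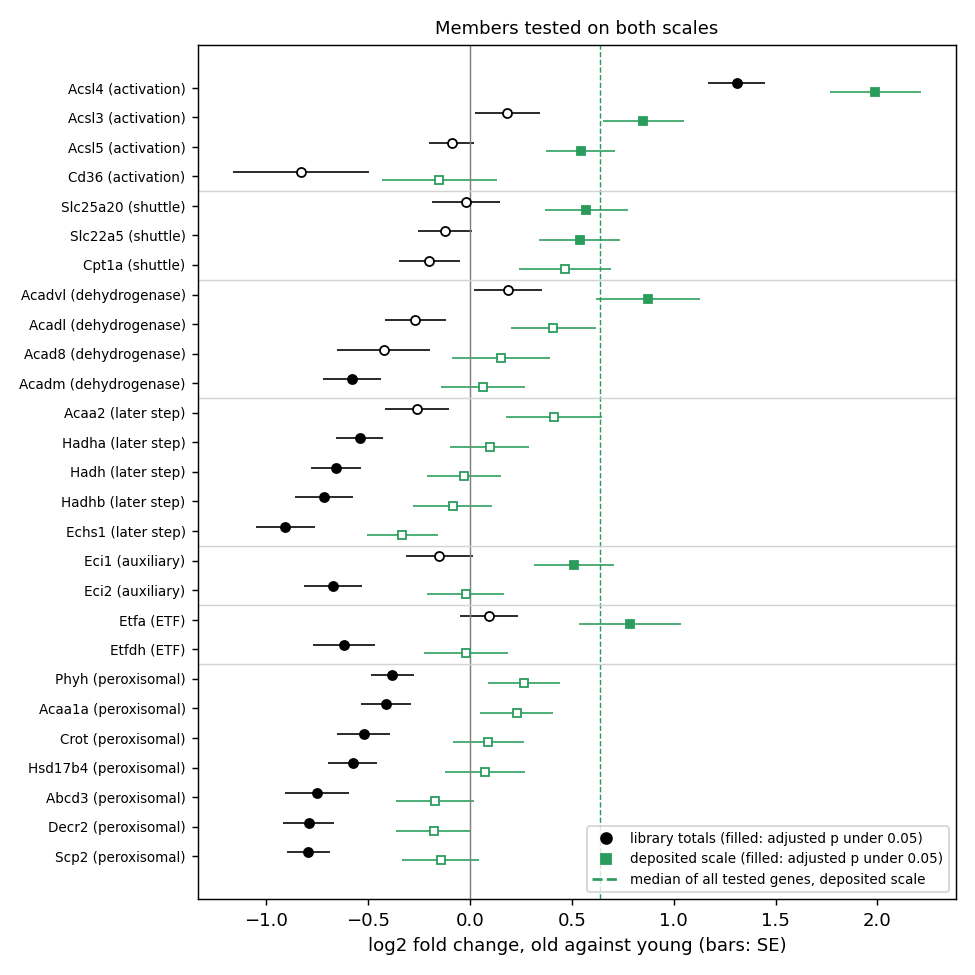
Log2 changes, old against young (x axis, log2 of RPKM + 1, bars are SE), of the 27 tested genes grouped by compartment, on library totals (circles) and on the deposited scale (squares), filled where the adjusted p was under 0.05. Every gene lies further right on the deposited scale, where the median of all tested genes (dashed line) was 0.64, and Acsl4 is the only gene filled and right of 0 on both scales.

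The promoters of 4 genes that the results turn on are printed to show the sequence around their start sites. They are Acsl4, the gene that rose, Hadha, which starts back to back with its partner Hadhb, and the peroxisomal genes Scp2 and Decr2, which had the most negative log2 changes, on log2 of RPKM + 1, of the 7 tested genes of that compartment. Each runs from 250 bases before to 50 bases after a RefSeq start (GRCm38.p6), on the minus strand in all 4 cases, written 5′ to 3′ in the direction of the gene, and capitals mark GC boxes (GGGCGG on either strand). The windows are chrX:142390486-142390785 (Acsl4), chr5:30154931-30155230 (Hadha), chr4:108118498-108118797 (Scp2, a start inside the gene as GENCODE M21 annotates it) and chr17:26090115-26090414 (Decr2).
Acsl4: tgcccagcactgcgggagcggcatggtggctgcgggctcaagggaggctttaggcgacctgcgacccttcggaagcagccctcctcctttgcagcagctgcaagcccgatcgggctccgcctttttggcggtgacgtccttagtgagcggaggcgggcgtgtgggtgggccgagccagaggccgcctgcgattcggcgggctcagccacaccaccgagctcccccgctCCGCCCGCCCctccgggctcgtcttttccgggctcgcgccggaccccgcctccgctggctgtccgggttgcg
Hadha: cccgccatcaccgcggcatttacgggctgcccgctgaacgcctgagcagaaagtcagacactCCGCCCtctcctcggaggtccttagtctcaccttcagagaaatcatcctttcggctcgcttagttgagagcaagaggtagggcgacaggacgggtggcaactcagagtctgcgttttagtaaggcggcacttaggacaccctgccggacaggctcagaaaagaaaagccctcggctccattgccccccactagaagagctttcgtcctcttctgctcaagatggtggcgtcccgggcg
Scp2: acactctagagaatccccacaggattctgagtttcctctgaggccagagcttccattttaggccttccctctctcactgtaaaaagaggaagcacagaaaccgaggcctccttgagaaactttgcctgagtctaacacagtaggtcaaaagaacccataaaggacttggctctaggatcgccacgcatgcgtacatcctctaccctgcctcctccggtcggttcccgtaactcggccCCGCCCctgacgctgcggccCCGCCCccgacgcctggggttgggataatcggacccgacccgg
Decr2: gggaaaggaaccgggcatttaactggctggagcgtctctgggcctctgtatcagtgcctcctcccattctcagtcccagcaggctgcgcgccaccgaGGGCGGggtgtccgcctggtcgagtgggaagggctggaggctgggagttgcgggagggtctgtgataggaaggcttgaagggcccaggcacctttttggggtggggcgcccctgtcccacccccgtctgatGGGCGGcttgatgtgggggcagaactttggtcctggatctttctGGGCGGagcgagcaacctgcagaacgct
These 4 windows hold 2, 1, 2 and 3 GC boxes, in the order printed.

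Windows of this kind were found for 39 of the 46 genes, 43 windows in all. A GC box was in 33 of the 43 (76.7%), and in 35.7% of the 32851 windows of all genes. The windows of all genes were not limited to genes with reads in these cells. The nuclear receptor half-site AGGTCA was in 9 of 43 (20.9%) against 16.3% of all windows, with 2 of the 9 among the 11 peroxisomal windows. Its paired form AGGTCANAGGTCA, 1 spelling of the element that PPAR and RXR recognise, was in 0 of 43 windows and 13 of 32851 (0.0396%). The half-site lies within that paired form and within TCAAGGTCA, the estrogen-related receptor element, which was found once, in the window of Acsl6. TATAAA was in 0 of 43 windows and in 13.6% of all. Both strands were searched for each motif, and a match describes letters in these windows, not a bound site.

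Uptake and activation held the only gene that rose. Acsl4, whose product prefers arachidonate and other polyunsaturated chains, lies at chrX:142317993-142390535 (GRCm38). It was at 28.8, 32.9, 38.3 and 28.4 RPKM in the young libraries and at 77.8, 97.9, 79.7 and 69.3 RPKM in the old. The groups did not overlap. The means were 32.1 ± 4.62 and 81.2 ± 12.04 RPKM (SD, n = 4 each), a log2 change of 1.31 (SE 0.14, limma adjusted p = 0.000292) by library totals and 1.99 (adjusted p = 7.61e-07) on the deposited scale. Across the alternatives tried, its log2 change ran from 1.22 to 1.99, and the adjusted p stayed at or below 0.00573.

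No other tested synthetase passed the test on library totals. Acsl3 had a log2 change of 0.18 (SE 0.16, limma adjusted p = 0.424) by library totals and 0.85 (adjusted p = 0.001) on the deposited scale. Acsl5 had -0.09 (SE 0.11, limma adjusted p = 0.589) on library totals, with the opposite sign on the deposited scale (0.54, adjusted p = 0.00822). Acsl1, a major synthetase of muscle fibres, was at 3.79, 3.79, 3.77 and 3.79 RPKM in the young libraries and 3.40, 2.78, 3.44 and 2.69 RPKM in the old. The old values were all below the young, but among the 11096 genes that averaged at least 1 RPKM its log2 change of -0.24 did not pass the test (adjusted p = 0.175), while the deposited scale gave 0.30. Acsl6 was below 1 RPKM in every library and was not tested.

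The makeup of the family does not depend on the scaling, since all members share a library. Acsl4 made up 43.9% to 49.2% of the summed ACSL RPKM in the young libraries and 63.7% to 72.8% in the old. Acsl3 made up 29.3% to 34.8% in the young and 17.6% to 24.8% in the old, and Acsl1 4.83% to 6.11% and 2.07% to 3.02%, with no overlap of the groups for any of the 3. These shares are a description without a test.

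Cd36, the fatty acid translocase, is also a marker of capillary endothelium. It was at 76.3, 62.1, 53.1 and 62.6 RPKM in the young libraries and at 47.0, 20.5, 71.7 and 21.4 RPKM in the old, so the groups overlapped through old library 3. Its log2 change of -0.83 (SE 0.34) did not pass the test (limma adjusted p = 0.0921), while the deposited scale gave -0.15. Without old library 3 it was -1.17 with an adjusted p of 0.00923. The summed endothelial markers stood at 134, 162, 131 and 135 RPKM in the young libraries and 96.8, 50.8, 133 and 65.7 RPKM in the old, so old libraries 2 and 4 were lowest and old library 3 highest of the old in both. Fabp4, a binding protein of adipocytes and capillary endothelium, was at 14.2, 22.5, 11.1 and 13.8 RPKM in the young libraries. In the old it was at 13.0, 6.56, 16.2 and 6.08 RPKM, with old libraries 2 and 4 again lowest and old library 3 highest. Among the young, Fabp4 and the endothelial sum were highest in library 2, and Cd36 in library 1. Old libraries 2 and 4 also had the lowest old sums of leukocyte, fibroblast, pericyte and smooth muscle, muscle fibre, adipocyte, erythroid and glial markers. The tenocyte and muscle stem cell sums had another order. Whether these markers account for Cd36 was not tested. Fabp3, the heart-type binding protein, was at 1.37 to 2.71 RPKM over the 8 libraries, and its log2 change of -0.09 (limma adjusted p = 0.704) took the opposite sign on the deposited scale (0.35) and under several other settings.

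**Figure D2:**
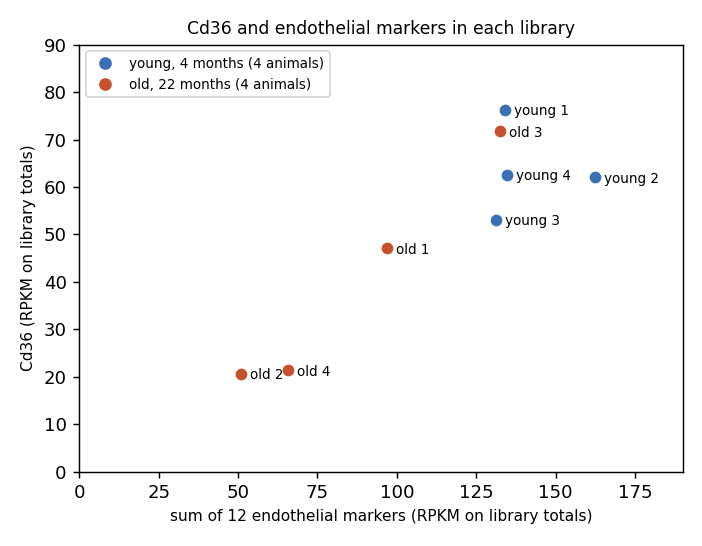
Cd36 (y axis) against the sum of 12 endothelial markers (x axis), both in RPKM on library totals, 1 point per library. Old libraries 2 and 4 are lowest on both axes, and old library 3, with 71.7 RPKM of Cd36, lies among the young libraries.

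The carnitine shuttle showed no gene past the test among the 3 with at least 5 RPKM, by limma, by limma-voom or at an unadjusted p under 0.05 on library totals. Cpt1a, the outer-membrane carnitine palmitoyltransferase that malonyl-CoA inhibits, was at 28.4, 19.7, 25.4 and 32.3 RPKM in the young libraries and 19.7, 22.8, 23.8 and 24.1 RPKM in the old. The groups overlapped, and the log2 change was -0.20 (SE 0.15, limma adjusted p = 0.352) on library totals against 0.47 (adjusted p = 0.0702) on the deposited scale. Cpt1b, the isoform of muscle fibres, was at or near 0 in both groups, with 3 reads in the 4 young libraries together and 8 in the 4 old. Its values ran from 0.0144 to 0.110 RPKM and from 0.0119 to 0.0389 RPKM, with young library 2 holding no read and a deposited stand-in for 0, and 81.4% of its exon bases are shared with the annotated gene Gm44502. Of the 3 CPT1 transcripts, Cpt1a had the highest level per length in all 8 libraries.

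Slc25a20, the carnitine-acylcarnitine carrier of the inner membrane, was at 6.59, 4.75, 5.29 and 8.34 RPKM in the young libraries and 5.71, 5.90, 5.75 and 6.80 RPKM in the old. Its log2 change was -0.02 (SE 0.17, limma adjusted p = 0.945), with a sign that turned with the setting, 0.57 (adjusted p = 0.0175) on the deposited scale among them. Slc22a5, the carnitine importer of the plasma membrane, had -0.12 (SE 0.13, limma adjusted p = 0.534) and 0.54 (adjusted p = 0.0207) on the 2 scales. Cpt2, which reforms acyl-CoA in the matrix, was at 6.21, 3.94, 6.57 and 3.67 RPKM in the young libraries and 3.83, 3.04, 3.00 and 2.67 RPKM in the old. The ranges overlapped at young library 4 and old library 1. Cpt2 was below the 5 RPKM minimum. Among genes of at least 1 RPKM its log2 change was -0.53 (SE 0.18, limma adjusted p = 0.0498) by library totals and 0.01 on the deposited scale. That call was lost without young library 1 or 3 or any one of the 4 old libraries, at adjusted p of 0.0532 to 0.126, and with the receptor-gene level subtracted (-0.41, adjusted p = 0.2). Cpt1c and Crat (carnitine acetyltransferase) had -0.51 and -0.46 at this minimum and did not pass the test (adjusted p = 0.0812 and 0.0799).

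Of the 4 tested acyl-CoA dehydrogenases, the enzymes of the first step, 1 fell and 3 did not pass the test, where 12.7% of all tested genes fell. Acadvl, for very long chains, had the highest level per length, at 88.3, 51.8, 84.2 and 78.4 RPKM in the young libraries and 72.5, 87.3, 92.7 and 87.1 RPKM in the old. The ranges overlapped, with young library 2 lowest, and the log2 change was 0.19 (SE 0.17, limma adjusted p = 0.437) by library totals and 0.87 (adjusted p = 0.00504) on the deposited scale. Of its exon bases 42.9% are shared with Dvl2 on the opposite strand, and this type of library does not mark strand. Dvl2 itself was at 0.642 to 1.38 RPKM over the 8 libraries.

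Acadm, the medium-chain dehydrogenase, was at 18.1, 12.8, 20.04 and 16.03 RPKM in the young libraries and 10.6, 9.84, 12.3 and 10.4 RPKM in the old. It fell without overlap of the groups, by a log2 change of -0.58 (SE 0.14, limma adjusted p = 0.0136) on library totals, while on the deposited scale the change was 0.06 (adjusted p = 0.789). The ratio of Acadvl to Acadm, which no scaling changes, was 4.04 to 4.89 in the young libraries and 6.87 to 8.87 in the old. That pair was chosen after its values were seen. Acadl, for long chains, and Acad8, which acts on the valine product isobutyryl-CoA, had -0.27 and -0.42 and did not pass the test (limma adjusted p = 0.211 and 0.193), with positive signs on the deposited scale (0.41 and 0.15). Without young library 2 Acad8 passed it, with -0.66 and an adjusted p of 0.0129.

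The remaining 3 dehydrogenases were low. Acads, for short chains, and Acad9, which also serves the assembly of respiratory complex I, were tested among genes of at least 1 RPKM only. Acads fell by a log2 change of -0.86 (SE 0.21, limma adjusted p = 0.0135), from a mean of 2.79 ± 0.826 to 1.07 ± 0.358 RPKM (n = 4 each), and Acad9 by -0.51 (SE 0.15, adjusted p = 0.0281). At this level 31.9% of all genes of 1 to 5 RPKM fell, and neither call held once the mean receptor-gene level of each library was subtracted (adjusted p = 0.0675 and 0.149). Acad9 was also lost without old library 1, 2 or 3, at adjusted p of 0.057 to 0.0811. Acad10 was below 1 RPKM on average and was not tested.

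Of the 5 genes of the later mitochondrial steps, 4 fell and 1 did not pass the test. Their median log2 change was -0.66 by library totals and -0.03 on the deposited scale. Among all tested genes 12.7% fell, with 17.4% at 5 to 10 RPKM and 12.9% at 10 to 20. Echs1, the short-chain enoyl-CoA hydratase, was at 6.90, 7.76, 6.85 and 7.59 RPKM in the young libraries and 3.83, 2.75, 3.96 and 3.22 RPKM in the old. No old value reached the lowest young value. Its log2 change was -0.91 (SE 0.14, limma adjusted p = 0.00207), the largest fall of the 27 tested genes, and it was also negative on the deposited scale (-0.33, adjusted p = 0.0912).

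Hadha and Hadhb encode the α and β subunits of the mitochondrial trifunctional protein, which performs the last 3 steps for long chains. They lie head to head on chromosome 5, at chr5:30118304-30155162 and chr5:30155248-30184593, with 86 bases between their starts. Hadha was at 13.6, 12.2, 14.9 and 15.3 RPKM in the young libraries and 8.59, 9.5, 9.81 and 9.19 RPKM in the old. Hadhb was at 11.6, 13.2, 12.8 and 14.3 RPKM in the young libraries and 6.16, 8.67, 9.11 and 6.46 RPKM in the old. The groups did not overlap for either. Hadha fell by a log2 change of -0.54 (SE 0.11, limma adjusted p = 0.00709) on library totals, where the deposited scale gave 0.10 (adjusted p = 0.662). Hadhb fell by -0.72 (SE 0.14, limma adjusted p = 0.00547), and the deposited scale gave -0.09. The ratio of Hadhb to Hadha within libraries overlapped between the groups, at 0.856 to 1.09 in the young and 0.703 to 0.929 in the old.

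Hadh, the short-chain hydroxyacyl-CoA dehydrogenase, was at 10.96, 12.8, 12.8 and 12.2 RPKM in the young libraries and 7.62, 7.65, 8.20 and 6.10 RPKM in the old. It fell without overlap by a log2 change of -0.66 (SE 0.12, limma adjusted p = 0.00413), against -0.03 on the deposited scale. Acaa2, the mitochondrial thiolase, was the exception of the step. Its mean was 34.3 ± 7.85 RPKM in the young and 27.9 ± 1.25 RPKM in the old libraries (n = 4 each), and its log2 change was -0.26 (SE 0.16, limma adjusted p = 0.253) by library totals and 0.41 on the deposited scale. Young library 2 was the lowest of the 8 at 24.2 RPKM, and without it Acaa2 passed the test with -0.41 (adjusted p = 0.0278).

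The auxiliary enzymes reshape unsaturated chains so that they fit the spiral. Eci2, an enoyl-CoA isomerase found in mitochondria and peroxisomes, was at 18.6, 20.8, 16.6 and 25.2 RPKM in the young libraries and 12.5, 10.7, 14.0 and 11.9 RPKM in the old. It fell without overlap, by a log2 change of -0.67 (SE 0.14, limma adjusted p = 0.00694) against -0.02 on the deposited scale. Its mitochondrial relative Eci1 had -0.15 (SE 0.16, limma adjusted p = 0.531) and 0.51 (adjusted p = 0.0243) on the 2 scales. Decr1, the mitochondrial dienoyl-CoA reductase, had a mean of 4.95 deposited RPKM, just under the minimum of 5, and fell among genes of at least 1 RPKM, from 7.08 ± 0.712 to 3.33 ± 0.456 RPKM (n = 4 each). Its log2 change was -0.90 (SE 0.13, limma adjusted p = 0.00224), and it passed the test with each library left out in turn.

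Electrons of the dehydrogenases pass through the electron transfer flavoprotein (Etfa and Etfb) to Etfdh, which hands them to ubiquinone. Etfa was the most abundant gene of the pathway, at 107 to 161 RPKM in the young and 125 to 157 RPKM in the old. Its log2 change was 0.09 (SE 0.14, limma adjusted p = 0.66) on library totals, which turned to -0.02 without young library 2, and 0.79 (adjusted p = 0.00901) on the deposited scale. Etfdh was at 8.60, 6.34, 9.86 and 10.1 RPKM in the young libraries and 5.43, 5.33, 5.50 and 4.802 RPKM in the old. It fell without overlap, by -0.62 (SE 0.15, limma adjusted p = 0.0134) on library totals against -0.02 on the deposited scale. The ratio of Etfa to Etfdh, a pair chosen after its values were seen, was 13.6 to 16.8 in the young libraries and 23.0 to 32.2 in the old. Etfb, of whose exon bases 53% are shared with the annotated gene Gm45233, was at 3.12 to 7.25 RPKM and did not pass the test at the 1 RPKM minimum (adjusted p = 0.429).

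**Figure D3:**
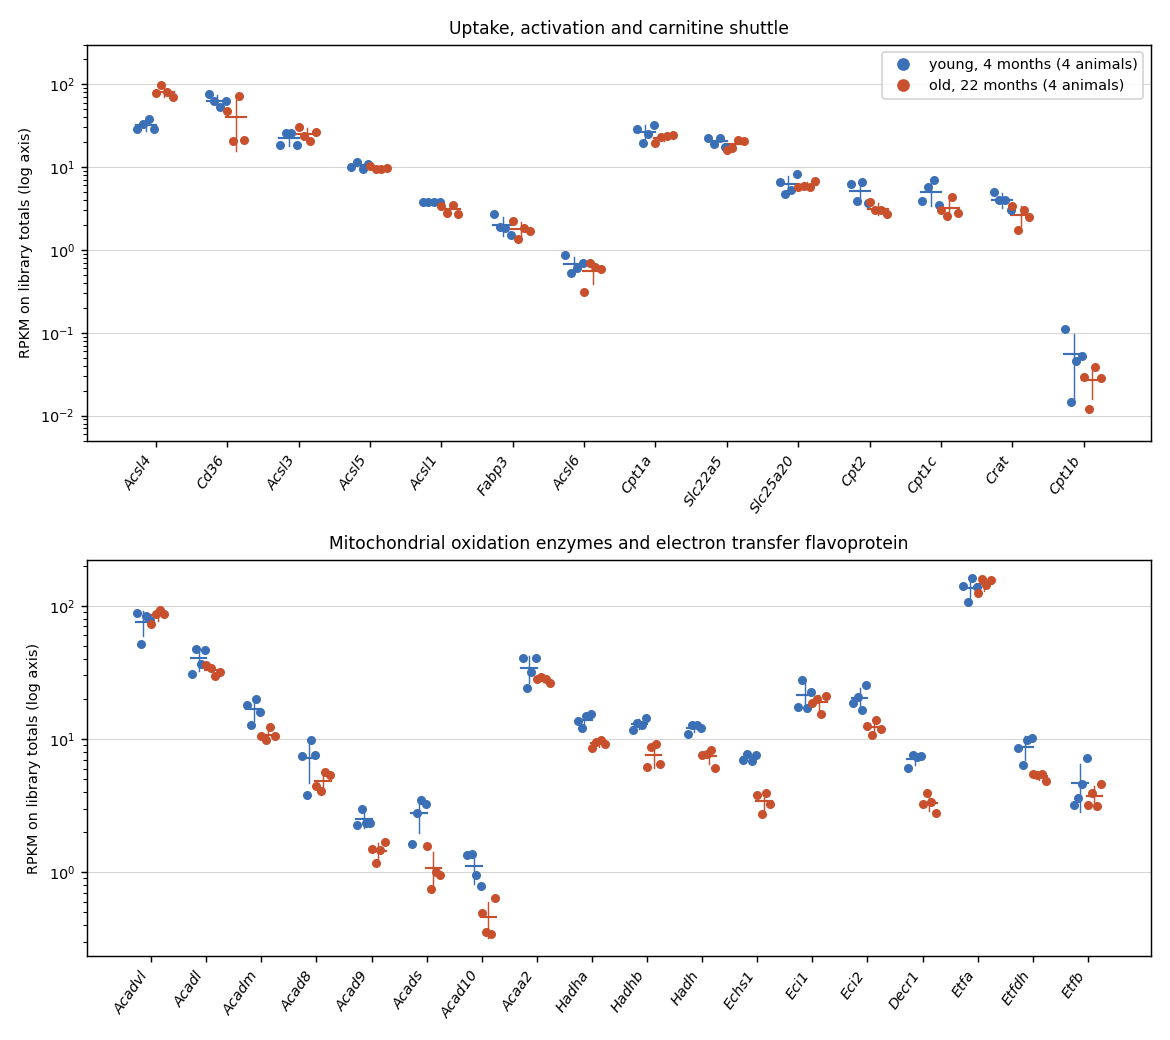
Level of each gene in each library (y axis, RPKM on library totals, log axis), for uptake, activation and shuttle (top) and for mitochondrial enzymes (bottom), with lines at the mean and SD of 4 young (blue) or 4 old (red) animals. Acsl4 is the gene whose old points lie above all young points. All old points lie below the young in Echs1, Hadh, Hadha, Hadhb, Etfdh, Acadm and Eci2. The same holds for Acsl1, Acads, Acad9, Acad10 and Decr1, which averaged under 5 RPKM. Among all genes of at least 5 RPKM it held for 13.4%, and for genes of lower level this share is not given here.

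The 2 PPAR regulators were low. Ppara, the receptor that drives oxidation genes in liver and muscle fibres, was at 0.677, 1.23, 0.835 and 0.870 RPKM in the young libraries and 0.221, 0.157, 0.148 and 0.0626 RPKM in the old, from 56 and 50 reads. It was not tested. The mean level of the receptor genes that should be silent stood at 0.413, 0.996, 0.210 and 0.369 RPKM in the same young libraries. Ppara lay above that level in its own library in all 8 libraries. Ppard, the widely expressed relative, was at 4.01, 3.16, 2.11 and 1.82 RPKM in the young libraries and 2.80, 1.62, 2.23 and 3.00 RPKM in the old. The groups overlapped, and its log2 change of -0.13 (limma adjusted p = 0.673) turned positive on the deposited scale (0.37) and under several other settings.

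The peroxisomal compartment went one way on library totals. All 7 genes with at least 5 RPKM fell, with a median log2 change of -0.58, against 15.4% of all tested genes of 5 to 20 RPKM, the range that holds all 7. In all 7 the highest old library lay below the lowest young library, which was so for 13.4% of all tested genes. On the deposited scale 0 of the 7 passed the limma test and 0 had an unadjusted p under 0.05, with a median of 0.07 that lies below the 0.64 of all tested genes, and 4 of the 7 had a positive sign. The summed RPKM of the 12 peroxisomal genes was 105, 106, 116 and 113 in the young libraries and 70.2, 66.5, 71.6 and 66.4 in the old on library totals. On the deposited scale the sums were 87.9 ± 16.9 and 87.5 ± 7.22 RPKM (n = 4 each).

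Abcd3, the membrane transporter that brings branched-chain and other acyl-CoA into the peroxisome, was at 6.36, 6.42, 7.56 and 8.24 RPKM in the young libraries and 3.94, 3.27, 4.93 and 3.32 RPKM in the old. It fell by a log2 change of -0.75 (SE 0.16, limma adjusted p = 0.0066), with -0.17 on the deposited scale. Acox3, an oxidase of branched chains that performs the first step, was at 2.45, 1.72, 2.41 and 1.68 RPKM in the young libraries and 1.32, 1.28, 1.05 and 1.00 RPKM in the old. It passed the test at the 1 RPKM minimum with -0.50 (SE 0.16, limma adjusted p = 0.0422), a call lost without young library 1 or 3 or any one of the old libraries (adjusted p of 0.0673 to 0.101). With the receptor-gene level subtracted its log2 change was -0.24 (adjusted p = 0.455).

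Both bifunctional enzymes, which carry out hydration and the second dehydrogenation, were measured. Hsd17b4, the D-bifunctional protein, was at 17.7, 15.8, 19.2 and 20.6 RPKM in the young libraries and 11.4, 11.7, 13.5 and 11.2 RPKM in the old. It fell by a log2 change of -0.58 (SE 0.12, limma adjusted p = 0.00645), where the deposited scale gave 0.07 (adjusted p = 0.748). Ehhadh, the L-bifunctional protein, was at 0.861, 1.04, 1.52 and 0.932 RPKM in the young libraries and 0.429, 0.493, 0.507 and 0.255 RPKM in the old, from 59 and 114 reads. It was too low to be tested, and the groups did not overlap. The mean receptor-gene level was 0.413, 0.996, 0.210 and 0.369 RPKM in the same young libraries, and its part in Ehhadh was not tested.

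The peroxisome has a thiolase for each kind of chain. Scp2 yields a thiolase for branched chains and the sterol carrier protein, and lies at chr4:108043839-108144998. It was at 19.3, 18.2, 21.4 and 20.4 RPKM in the young libraries and 10.9, 10.7, 11.1 and 11.2 RPKM in the old. The 2 ranges were narrow and well apart. Its log2 change of -0.79 (SE 0.10, limma adjusted p = 0.000831) had the smallest adjusted p of the genes that fell, and on the deposited scale it was -0.14. Acaa1a, the thiolase for straight chains, was at 14.1, 14.5, 15.1 and 13.3 RPKM in the young libraries and 12.7, 9.08, 9.60 and 10.8 RPKM in the old. It fell by -0.41 (SE 0.12, limma adjusted p = 0.0317) against 0.23 on the deposited scale. That call was lost without young library 1 or 3 or old library 2, 3 or 4, at adjusted p of 0.0592 to 0.092. Its near-identical copy Acaa1b was at 0.907 ± 0.662 RPKM in the young and 0.0332 ± 0.0195 RPKM in the old libraries (n = 4 each), and how reads common to both were counted is not known here.

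Phytanate, a branched chain from the diet, is shortened by α-oxidation before it can enter the spiral. Phyh, the hydroxylase of that step, was at 13.5, 16.3, 14.7 and 15.1 RPKM in the young libraries and 11.2, 11.3, 11.5 and 10.7 RPKM in the old. It fell by a log2 change of -0.38 (SE 0.11, limma adjusted p = 0.0222) against 0.26 on the deposited scale, a call lost without young library 4 (adjusted p = 0.0544) or old library 4 (0.0571). Hacl1, the lyase that follows, and Amacr, the racemase that readies branched chains for oxidation, passed the test only at the 1 RPKM minimum, with -0.52 and -0.73 (limma adjusted p = 0.0327 and 0.0292). Hacl1 was lost without young library 3 or 4 or any one of the old libraries (adjusted p of 0.0538 to 0.0875), and Amacr without young library 1 or 3 or old library 2 or 4 (0.0654 to 0.0833). With the receptor-gene level subtracted neither passed, at -0.30 for Hacl1 and -0.58 for Amacr (limma adjusted p = 0.292 and 0.13).

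Decr2, the peroxisomal dienoyl-CoA reductase, lies at chr17:26081208-26090337 and was at 9.25, 10.1, 12.3 and 11.5 RPKM in the young libraries and 6.05, 5.48, 5.79 and 5.75 RPKM in the old. It fell by a log2 change of -0.79 (SE 0.12, limma adjusted p = 0.00199), against -0.18 on the deposited scale. Its mitochondrial counterpart Decr1 had -0.90 at the 1 RPKM minimum. Pecr, the peroxisomal enoyl-CoA reductase, was at 5.63 to 6.55 RPKM in the young and 2.56 to 4.51 RPKM in the old, and fell at the 1 RPKM minimum by -0.77 (SE 0.16, limma adjusted p = 0.00754). Crot, which turns shortened chains into carnitine esters for export, was at 7.96, 10.4, 8.08 and 9.66 RPKM in the young libraries and 5.52, 5.99, 6.75 and 5.55 RPKM in the old. It fell by -0.52 (SE 0.13, limma adjusted p = 0.0148) against 0.09 on the deposited scale.

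**Figure D4:**
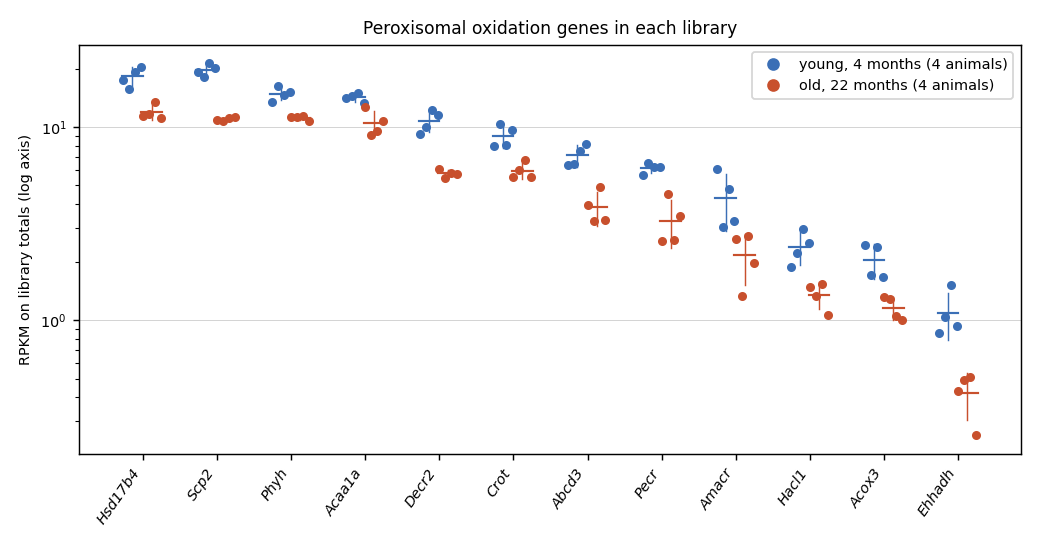
Level of the 12 peroxisomal genes in each library (y axis, RPKM on library totals, log axis), with lines at the mean and SD of 4 young (blue) or 4 old (red) animals. In all 12 genes the highest old point lies below the lowest young point, from Hsd17b4 and Scp2 near 20 RPKM in the young to Ehhadh at about 1 RPKM. The same held for 13.4% of all genes of at least 5 RPKM, a group that holds 7 of the 12. For genes of lower level this share is not given here.

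The level of a gene bears on these counts. Among all genes of 1 to 5 RPKM the median log2 change on library totals was -0.40, among those of 5 to 10 RPKM -0.14, and among those of at least 50 RPKM 0.15. The share that fell went from 17.4% of genes of 5 to 10 RPKM to 12.9% at 10 to 20, 8.93% at 20 to 50 and 7.64% at 50 or more. The peroxisomal genes and the later mitochondrial steps sit mostly in the lower ranges, and Acsl4, Acadvl and Etfa in the highest. With the mean receptor-gene level of each library subtracted, an alternative chosen after seeing the data, 6 of the 7 peroxisomal genes still fell (Acaa1a had an adjusted p of 0.0547), against 9.92% of all tested genes. At the 1 RPKM minimum 11 of 11 peroxisomal genes fell without the subtraction, against 22.3% of all genes tested at that minimum, and 7 of 11 with it, against 11.3%. The 4 calls lost there were Acaa1a, Acox3, Hacl1 and Amacr. For the later mitochondrial steps 4 of 5 fell either way, and Acsl4 rose either way (14.3% of all tested genes rose after subtraction).

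**Figure D5:**
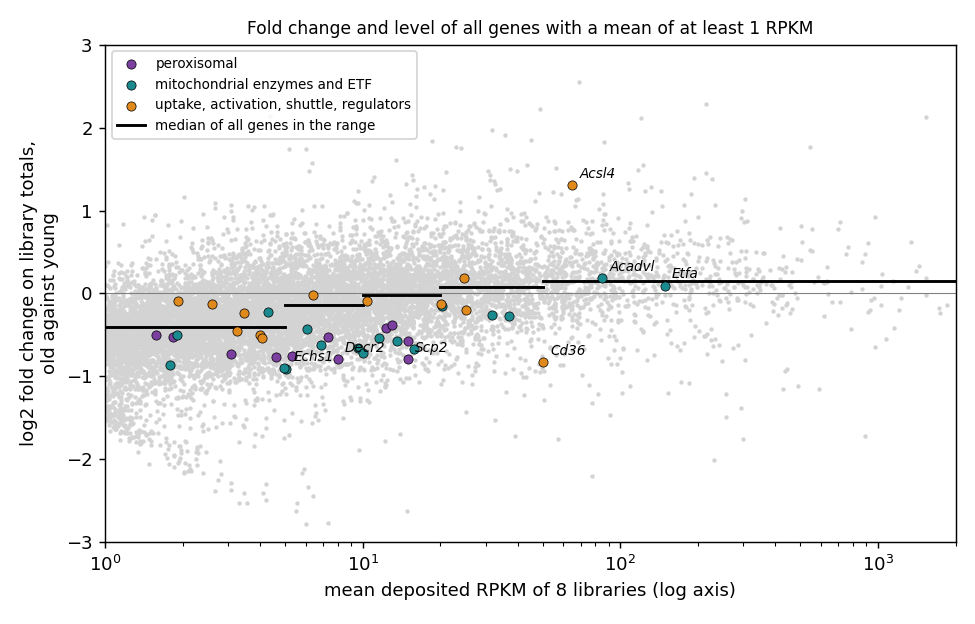
Log2 change on library totals, old against young (y axis), against the mean deposited RPKM of 8 libraries (x axis, log axis) for all genes of at least 1 RPKM (grey), with genes of the pathway in colour and the median of all genes in each range as a black line. The median moves from -0.40 at 1 to 5 RPKM to 0.15 at 50 RPKM or more, and all peroxisomal genes shown lie below 0.

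The compartments can be set against each other within a library, which no scaling changes. The summed peroxisomal RPKM was 0.246, 0.291, 0.256 and 0.249 of the summed RPKM of the 18 mitochondrial enzymes and flavoprotein genes in the young libraries and 0.201, 0.168, 0.185 and 0.171 in the old. The groups did not overlap. Without Acadvl and Etfa, the mitochondrial genes with the highest levels, the ratio was 0.474 to 0.558 in the young libraries and 0.439 to 0.475 in the old, and the groups overlapped. These ratios are given as a description without a test.

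Genes around the pathway were counted from lists with earlier results of these data known. Of 11 other tested peroxisomal lipid enzymes, 6 fell, 1 rose and 4 did not pass the test. Among all tested genes 12.3% rose and 12.7% fell, and neither this list nor those below were tested against these shares. Cat (catalase, which removes the hydrogen peroxide that peroxisomal oxidases make) went from 29.2 ± 4.83 to 13.6 ± 1.88 RPKM (n = 4 each), a log2 change of -1.04 (limma adjusted p = 0.00113) by library totals and -0.38 on the deposited scale. Gnpat, the first enzyme of ether lipid synthesis, had -0.64 (limma adjusted p = 0.00967; -0.03 deposited), and the membrane carrier Slc25a17 had -0.48 (adjusted p = 0.0178), which was 0.20 on the deposited scale. Far1, the reductase that supplies fatty alcohol to ether lipids, rose by 0.50 (limma adjusted p = 0.0265; 1.18 deposited). Of 4 tested peroxins, which build the organelle, 1 fell (Pex19, -0.57, limma adjusted p = 0.0496, 0.11 deposited) and 3 did not pass the test. The median of the 4 tested peroxins was 0.02, against -0.48 for the other peroxisomal lipid enzymes. At the 1 RPKM minimum, where 22.3% of all genes fell, 2 of 13 peroxins fell. The medians there were -0.18 and -0.54.

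Other acyl-CoA dehydrogenases and mitochondrial acyl-CoA enzymes, among them enzymes of amino acid and ketone metabolism and thioesterases, gave 5 that fell, 0 that rose and 9 that did not pass the limma test, of 14. At an unadjusted p under 0.05, and by limma-voom, 6 were lower and 0 higher. Of all 5703 tested genes, 1115 were lower and 1060 higher at that unadjusted p on library totals. By limma-voom 743 of them were lower and 692 higher. Gcdh, of lysine breakdown, had a log2 change of -0.66 (limma adjusted p = 0.0106), Pcca, of propionyl-CoA carboxylase, -0.57 (adjusted p = 0.0134, 0.02 deposited) and Acat1, the acetoacetyl-CoA thiolase, -0.44 (adjusted p = 0.0195, 0.24 deposited). Of 10 tested partners and induced genes of PPAR and PGC-1, 1 rose and 2 fell, and the list shares Cpt1b and Slc25a20 with the 46 genes. Pprc1, a PGC-1-related coactivator, rose by 0.75 (limma adjusted p = 0.00194), while Txnip and Ucp2 had -0.80 and -0.55 (adjusted p = 0.032 and 0.0482, deposited -0.12 and 0.04). Pdk4, a classic PPAR target that spares glucose, had -0.39 (limma adjusted p = 0.118, 0.29 deposited), and Ppargc1a (PGC-1α) had -0.69 at the 1 RPKM minimum (adjusted p = 0.077).

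Of 17 tested genes of fatty acid synthesis and desaturation, 3 rose, 2 fell and 12 did not pass the test. The shares among all tested genes were 12.3% that rose and 12.7% that fell. The elongation genes Hacd1, Elovl4 and Hacd2 rose by log2 changes of 0.64, 0.75 and 0.46 (limma adjusted p = 0.00847, 0.00875 and 0.0347). The desaturase Scd2 fell by -1.18 (adjusted p = 0.00801) and was lower on the deposited scale too (-0.55, adjusted p = 0.0485), and Mecr, of mitochondrial fatty acid synthesis, had -0.46 (adjusted p = 0.0206, 0.15 deposited). Fasn, the cytosolic synthase, had -0.35 (limma adjusted p = 0.129, 0.30 deposited), and Acaca, which makes malonyl-CoA, had -0.45 at the 1 RPKM minimum (adjusted p = 0.062).

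Among 15 tested genes of lipolysis and lipid droplets 4 fell, 0 rose and 11 did not pass the limma test. The shares among all tested genes were 12.7% that fell and 12.3% that rose. At an unadjusted p under 0.05 there were 2 higher and 4 lower, and by limma-voom 0 higher and 3 lower. The droplet proteins Plin3 and Fitm1 had log2 changes of -1.06 and -1.13 (limma adjusted p = 0.000303 and 0.00157, deposited -0.40 and -0.56), and Bscl2 (seipin) had -0.46 (adjusted p = 0.0445, 0.12 deposited). Pnpla2, the main triglyceride lipase, had 0.13 (limma adjusted p = 0.452; 0.81 deposited). Of 8 other tested genes of uptake and binding 2 fell, 0 rose and 6 did not pass the limma test, and at an unadjusted p under 0.05 and by limma-voom 0 were higher. The genes that fell were Acbd5, an acyl-CoA binding protein of the peroxisomal membrane (-0.82, limma adjusted p = 0.00208, -0.21 deposited), and Lpl, lipoprotein lipase (-0.82, adjusted p = 0.00277, -0.17 deposited).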

How the data were processed

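Polyadenylated RNA was measured in 8 libraries, 1 per mouse. The authors deposited 1 table of RPKM for 24630 genes, made with Trim Galore, STAR, featureCounts (Subread) and edgeR on mm10 (GRCm38), per the submitters' processing notes. Their versions and settings are not known here. In all 23461 genes with reads the values were whole multiples of 1 read (tolerance 0.0005), so reads per gene were recovered and RPKM recomputed per M (mega) reads in genes. A common divisor of a gene's reads cannot be seen, but 36 of the 46 genes implied their GENCODE M21 exon length. Zeros had been deposited as small positive values. Reads in genes covered 1.91 to 24.9 M per library, and floors cover counting error only, since amplified reads are not independent molecules.

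Old and young libraries were compared on log2(RPKM + 1) with limma 3.58.1 in R 4.3.3 (its trend option), without covariates, which understates changes of low genes, with Benjamini-Hochberg adjustment over all 5703 genes with a mean deposited RPKM of at least 5 (11096 at the 1 RPKM minimum). The fit was tested on simulated data. Alternatives covered scaling, pseudocount, filter, thinned reads, a replicate block and left-out libraries. Limma-voom and the subtraction of the receptor-gene level were chosen after seeing the data. Genes and lists were chosen with earlier results of these data known. Values in all libraries are given for genes past the threshold and for 17 genes fixed in the design, and from each list up to 3 genes per direction with the smallest adjusted p, plus 6 fixed genes, of which 1 is not reported here. ERCC spike-ins and protein sequences are not analysed here.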

Additional observations from a re-analysis of the deposited data

Results flagged for a closer look

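Within groups of 4 libraries, 92 sets of values of the 46 genes were searched for a library far from the other 3. The search found 2. The sets share the same libraries, and the number that chance alone would give is not given here. Acsl1 stood at 3.77 RPKM in young library 3 against 3.79 in each of the other young libraries, a gap of 0.861 of the group's range, in a group whose whole spread is only 0.0106 RPKM (SD). Acad9 stood at 3.00 RPKM in young library 2, the library with the fewest reads and the highest receptor-gene level, against 2.27 to 2.35 RPKM in the other young libraries, a gap of 0.890 of the range.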

How the results depend on the processing

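On library totals 14 genes were lower and 1 higher. The lower count was 0 and the higher count 8 on the deposited scale, where 69.2% of all tested genes passed in either direction. On library totals the lower count was 22 at the 1 RPKM minimum and 24 with no filter. It was 8 at the 10 RPKM minimum, where fewer genes were tested. In these 3 fits 29.6%, 39.4% and 26.4% of all tested genes passed in either direction, and with no filter their median log2 change was -0.35. With 1 library left out, the lower count ran from 12 (without old library 4) to 16 (without young library 2), while the higher count stayed at 1. The share of all tested genes that passed in either direction was 17.6% and 28.3% in these fits, in that order. Thinned reads gave 11 lower, limma-voom 14, the receptor-gene subtraction 13, and leaving out young libraries 1 and 2 together 12. In the same order, 19.1%, 25.2%, 24.2% and 18.1% of all tested genes passed in either direction. By limma-voom 743 of all 5703 tested genes were lower, and after the subtraction 9.92% of them were. On the deposited scale the higher count of 8 ran from 6 to 10 with 1 library left out. The lower count of 0 became 2 with no filter and ran from 0 to 1 with 1 library left out, reaching 1 without young library 2. The shares of all tested genes in these deposited-scale fits are not given here.

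The deposited scale turned the sign of the log2 fold change of Fabp3 (0.35), Acsl1 (0.30), Acsl5 (0.54), Slc22a5 (0.54), Cpt1a (0.47), Cpt1c (0.043), Cpt2 (0.012), Slc25a20 (0.57), Crat (0.064), Acadl (0.41), Acadm (0.064), Acad8 (0.15), Hadha (0.10), Acaa2 (0.41), Eci1 (0.51), Etfb (0.32), Ppard (0.37), Hsd17b4 (0.073), Acaa1a (0.23), Phyh (0.26) and Crot (0.090). Centring each library on its median turned Fabp3 (0.14), Acsl1 (0.00040), Etfb (0.0097) and Ppard (0.11). Leaving out young libraries 1 and 2 turned Fabp3 (0.055), Ppard (0.19) and Etfa (-0.046), and the receptor-gene subtraction turned Fabp3 (0.16), Slc25a20 (0.088) and Ppard (0.061). Thinned reads turned Slc25a20 (0.035). With 1 library left out Fabp3 ran from -0.18 to 0.014, Slc25a20 from -0.12 to 0.11, Etfa from -0.018 to 0.18 and Ppard from -0.25 to 0.022. The cause was not tested. Crot lost its call with thinned reads (adjusted p = 0.069) and without young libraries 1 and 2 (0.0534).

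Deviations of young and old libraries of the same number had correlations of -0.17, -0.06, 0.39 and -0.24. For libraries of different numbers they ran from -0.40 to 0.41. With 4 libraries per group, these values cannot show whether the numbers pair animals. With the replicate block 13 genes were lower and 1 higher on library totals, where 22.8% of all tested genes passed in either direction. On the deposited scale 0 were lower and 7 higher with the block, where the share of all tested genes is not given here. The edgeR and DESeq2 fits planned on recovered reads were not run, because the deposited unit is RPKM, and limma-voom took their place. Depth limits genes under 1 RPKM, where 3 reads in a short gene of a young library exceed the level itself.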
